A study of Mus musculus with 4 samples.

Results

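Core spliceosome and snRNP genes were followed in HT-22 cells, an immortalised line derived from mouse hippocampal neurons, with and without overexpression of Nsmce1. Members were the rows of the deposited gene table whose symbol begins with Snrp, Snrnp, Sf3a, Sf3b, Prpf, Lsm and a digit, or U2af, apart from symbols marked as pseudogenes by "-ps". The rule gave 59 of the 25050 rows. The study compared 2 libraries of cells carrying and overexpressing an inducible Nsmce1, labelled Nsmce1-pb, with 2 libraries labelled wild type, which the description also calls uninduced cells. All 4 libraries came from 1 cell line at passages 21 to 24, and the promoter, the inducer and the number of clones are not given in the sources used here. An effect of Nsmce1 itself therefore cannot be told apart from other differences between the cell populations.

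The spliceosome removes introns from pre-mRNA. It is built from small nuclear ribonucleoproteins (snRNPs), each an snRNA wrapped in a ring of Sm proteins or, for U6, of the related LSm proteins, together with proteins that belong to a single particle. U1 marks the 5' splice site, U2 with the SF3A and SF3B complexes marks the branch point, and the U4/U6.U5 tri-snRNP brings in the catalytic centre, while a minor spliceosome with U11 and U12 handles a rare class of introns. Most of these proteins are made in every cell type, and the title of the study concerns alternative splicing. Isoforms were not analysed here, because each gene has a single value.

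The values below are normalised reads, obtained by undoing the log2 of the deposited values, and every fold change is a difference of log2(normalised reads + 1) between overexpressing and wild type cells. The reads behind them came to 32516117 and 44602989 in the overexpressing libraries and to 25787452 and 31010351 in the wild type libraries. Nsmce1 stood at 17851 and 16525 normalised reads in overexpressing cells, against 1108 and 1206 in wild type cells (a log2 difference of 3.89 with SE 0.0856, limma adjusted p = 9.06e-05), as the labels state. Of 16 neuronal markers listed, 10 had values here, and 4 of those 10 passed the filter. Eno2 had 5778 and 3884 normalised reads in overexpressing cells against 3965 and 4107 in wild type cells, Syn1 had 1024 and 1219 against 1186 and 1087, and Tubb3 had 446 and 611 against 622 and 574, while Gap43 had 7 and 0 against 23.9 and 44.2. The other 6 with values lay between 0 and 16.3 in every library. The glutamatergic marker Slc17a7 among them had 2 and 2.19 normalised reads in overexpressing cells and 5.03 and 2.11 in wild type cells. Of 9 fibroblast markers listed, 8 passed the filter. The highest, the collagen gene Col1a2, had 180553 and 163626 in overexpressing cells, against 189826 and 171347 in wild type cells. The groups overlapped for 6 of the 8 and did not for 2, Postn and Col3a1, both lower in overexpressing cells (25%, beside 39.1% of all genes tested). Postn had 624 and 407 against 1079 and 710. Lum, which failed the filter, had 0 and 0 against 3.77 and 13.7. Markers of astrocytes, oligodendrocytes, microglia and endothelium were listed too. Over all marker lists 22 genes were tested, and the groups did not overlap for 27.3% of them, 1 higher and 5 lower. The neuronal label thus had some of the 10 neuronal markers at clear levels and most of them at or near 0, in both groups. Separate cultures are not stated for the 2 libraries of either group, and the p-values speak only of the spread between these samples.

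The spliceosome list held close copies, whose reads a counting step can split, and these are shown first because they limit what single values mean. Snrpert is annotated as a processed pseudogene on chromosome 2, yet its symbol met the rule. It carries the whole coding sequence of Snrpe, which encodes the Sm protein E on chromosome 1. Over 279 aligned bases 3 differed, an identity of 98.9%. All 3 lie in bases 161 to 279, counted from the start codon of the GENCODE M21 (GRCm38) transcripts, and are in capitals here.
Snrpe: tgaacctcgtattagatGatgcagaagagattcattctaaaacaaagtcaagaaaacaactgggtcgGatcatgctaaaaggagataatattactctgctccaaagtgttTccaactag
Snrpert: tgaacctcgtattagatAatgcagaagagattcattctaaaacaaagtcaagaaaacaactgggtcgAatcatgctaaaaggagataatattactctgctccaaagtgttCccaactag
Of the 50-base words in Snrpert, 55.7% also occurred in Snrpe. Snrpert had 271 and 279 normalised reads in overexpressing cells and 286 and 318 in wild type cells, and whether these came from the pseudogene or from Snrpe was not tested.

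Snrpb and Snrpn encode the Sm proteins B and N, which take the same place in the ring, with N being the form enriched in neurons and made from an imprinted locus. Their coding sequences were 80.5% identical over 696 aligned bases, and the longest identical run was 32 bases. The first 120 coding bases in GENCODE M21 are shown, with the 17 differences in capitals.
Snrpb: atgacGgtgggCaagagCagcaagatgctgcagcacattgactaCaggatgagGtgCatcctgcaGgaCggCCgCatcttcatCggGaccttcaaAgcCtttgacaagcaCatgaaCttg
Snrpn: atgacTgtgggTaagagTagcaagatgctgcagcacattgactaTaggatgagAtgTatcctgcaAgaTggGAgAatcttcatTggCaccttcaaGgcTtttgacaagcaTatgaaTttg
The differences are spread along the stretch. Snrpn nevertheless shared 21.7% of its 50-base words with other genes, mainly with the overlapping same-strand gene Gm38393 (21.2%). In all, 8 of the 59 members shared more than 20% of their 50-base words with another gene, among them Sf3b4 (43.6%), U2af1 (21.7%), Snrpf (21.3%) and Lsm5 (21.0%), mostly with genes named only by a Gm number. The symbol U2af1l4 stood on 2 rows. The second of them is named Gm49396 in the reference annotation, where it shares exons with both U2af1l4 and Igflr1, and it is called the second U2af1l4 row here.

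Each of the 59 members reached the minimum mean of 10 normalised reads and entered the test. At a Benjamini-Hochberg adjusted p under 0.05 over all 15540 tested genes, limma called 0 of them, where 0.193% of all genes tested were called. At an unadjusted p under 0.05 the count was 6 members, 4 higher and 2 lower, which is 10.2% of the list beside 7.92% of all genes tested. Of all genes tested, 4.32% were higher and 3.6% lower at that threshold. The 4 higher members include Snrpn, which passed the filter only through the overexpressing libraries, so the share is not evidence about the list. They also include both Lsm7 and Snrpf on chromosome 10, where all 5 members lay above 0. The 54 members elsewhere had 4 at that threshold (7.41%), and subtracting chromosome medians left a count of 4 among all 59. With voom on the recovered reads the adjusted count was also 0 and the unadjusted count was 8. The median log2 fold change of the members was 0.003, beside 0.005 for all genes tested, and 31 members lay above 0 and 28 below. In bulk RNA, fewer cells making a transcript and less of it per cell cannot be told apart. The fitted change was within 0.25 on the log2 scale for 53 of the 59. The 95% limits lay inside a 1.5-fold change in either direction for 51 members and inside a 2-fold change for 57, the exceptions to the wider bound being Snrpn and Snrnp35. Both overexpressing libraries lay outside the range of both wild type libraries for 15 members, 10 higher and 5 lower. That is 25.4% of the list, beside 39.1% of all genes tested.

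**Figure D1:**
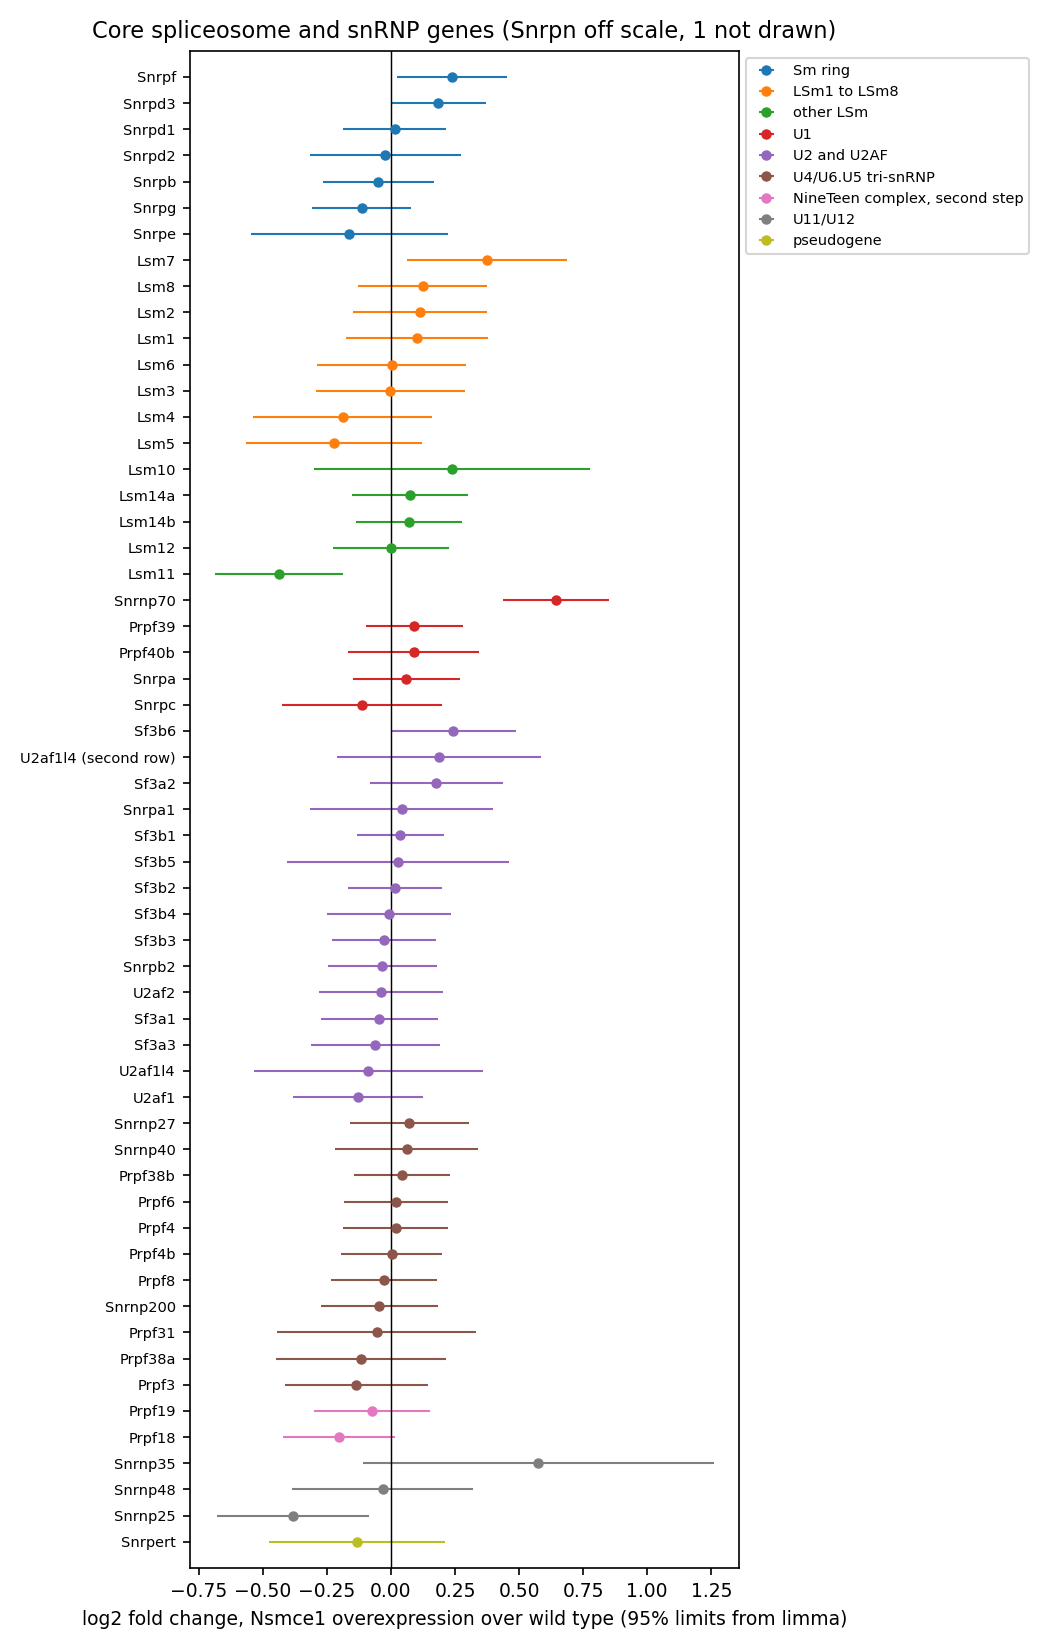
Log2 fold change of the members shown (x axis, overexpression over wild type, with 95% limits from limma), grouped and coloured by complex; Snrpn, at 3.76, is off the scale and 1 other member is not drawn. Most points lie near 0, Snrnp70 stands farthest to the right of those with narrow limits (0.64), and Lsm11 farthest to the left (-0.44).

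The U1 particle held the member with the smallest p. Snrnp70 encodes U1-70K, the protein that binds the first stem-loop of U1 snRNA and meets SR proteins at the 5' splice site. It had 7795 and 8690 normalised reads in overexpressing cells, against 5390 and 5144 in wild type cells. The groups did not overlap, and the gap between them exceeded the difference within either pair. The means were 8243 ± 633 and 5267 ± 174 (SD, n = 2 in each group), a ratio of 1.57. The log2 fold change of 0.64 had an SE of 0.0845 and 95% limits of 0.44 to 0.85, but missed the threshold over all genes (limma adjusted p = 0.0731). It passed in the fit with robust variances (limma adjusted p = 0.0279) and in the fit with the replicate number as a block (limma adjusted p = 0.0480), and over the other settings tried the adjusted p ran up to 0.388. Earlier results of these data had already singled this gene out, so its standing first is not independent of them.

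The other U1 proteins did not stand apart in the same way. Snrpa, which encodes the U1 protein A, had 2511 and 2406 normalised reads in overexpressing cells and 2448 and 2270 in wild type cells. Snrpc, which encodes the U1 protein C that steadies pairing at the 5' splice site, had 1571 and 1863 against 1699 and 2012. The groups overlapped for both genes. Among the U1-associated factors, Prpf39 had 2984 and 3060 against 2779 and 2894 and did not overlap, while Prpf40b had 1104 and 983 against 962 and 997 and overlapped (log2 fold change 0.09 for both). Per kilobase of annotated exon, Snrnp70 stood first among the 6 U1 genes in overexpressing cells at 1082 normalised reads per kb, followed by Snrpa at 829. In wild type cells Snrpa was first at 796 and Snrnp70 second at 691.

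Among the LSm proteins outside the U6 ring, Lsm11 had the lowest value relative to wild type of all members. Lsm11 and Lsm10 replace the proteins D1 and D2 in the ring of the U7 snRNP, which trims the 3' ends of replication-dependent histone transcripts. Lsm11 had 697 and 652 normalised reads in overexpressing cells, against 926 and 898 in wild type cells, with no overlap. The ratio of overexpressing to wild type means was 0.740 (log2 fold change -0.44, SE 0.103, limma adjusted p = 0.331). Lsm10 had 644 and 409 against 419 and 451, so that 1 overexpressing library lay above and 1 below both wild type libraries. The fitted values of the partners lay on opposite sides of 0, and the difference between them was not tested. Other genes of histone pre-mRNA processing numbered 6, among them the stem-loop binding protein gene Slbp. Of these 6, 0 reached an unadjusted limma p under 0.05, beside 7.92% of all genes tested. A count of 0 says little in so short a list. Among the 6, 2 lay above 0 and 4 below it, with a median of -0.01.

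The starts of Snrnp70 and Lsm11 are shown because they had the smallest p among the members that lay higher and lower. Each line holds the 250 bases before the start of transcription in RefSeq (GRCm38.p6), read on the minus strand, at chr7:45395743-45395992 for Snrnp70 and chr11:45944936-45945185 for Lsm11. Capitals mark the exact matches to the motifs described next.
Snrnp70: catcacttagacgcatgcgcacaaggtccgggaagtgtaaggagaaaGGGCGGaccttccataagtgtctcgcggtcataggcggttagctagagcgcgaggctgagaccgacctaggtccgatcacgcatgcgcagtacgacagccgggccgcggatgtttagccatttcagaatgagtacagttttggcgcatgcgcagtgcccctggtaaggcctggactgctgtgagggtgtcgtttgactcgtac
Lsm11: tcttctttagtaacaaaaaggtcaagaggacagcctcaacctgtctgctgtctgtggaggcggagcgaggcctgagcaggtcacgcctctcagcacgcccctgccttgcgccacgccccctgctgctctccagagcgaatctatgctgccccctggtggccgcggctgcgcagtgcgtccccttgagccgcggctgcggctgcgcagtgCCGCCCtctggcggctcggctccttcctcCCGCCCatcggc
The motifs searched on both strands were the TATA box (TATAAA), the CCAAT box (CCAAT), the GC box (GGGCGG), an ETS core (CCGGAAG) and a YY1 core (AAGATGGC). The Snrnp70 window held 1 GC box and the Lsm11 window 2, which read on the other strand. A promoter was found in the RefSeq table for 46 member symbols. Of these 46, 14 held the ETS core (30.4%, beside 7.05% of 27025 promoters of all genes), 27 the GC box (58.7% beside 32.9%), 18 the CCAAT box (39.1% beside 34.5%), 3 the TATA box (6.52% beside 13.0%) and 0 the YY1 core (beside 1.59%). The windows of the members had a median GC content of 57.2%, against 52% in all promoters, and a median of 19 CG pairs against 6, which also moves with the GC-rich motifs. The 27025 promoters were not limited to genes that passed the filter, whereas all members passed it. The sets are thus not matched for expression, and the shares cannot be laid to splicing genes as such. These are matches of letters, and binding was not measured.

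The Sm genes of the major snRNPs lay on either side of 0. Of 8 Sm genes, 4 lay above 0 and 4 below, with a median log2 fold change of -0.004. The groups did not overlap for 4 of the 8, Snrpn, Snrpf, Snrpd3 and Snrpg (50% beside 39.1% of all genes tested). At an unadjusted limma p under 0.05 stood 2, Snrpn and Snrpf (25% beside 7.92%). Both shares count Snrpn, which passed the filter only through the overexpressing libraries, so neither is evidence about the ring. Snrpf, which encodes the F protein, had 2265 and 2438 normalised reads in overexpressing cells against 1928 and 2060 in wild type cells (log2 fold change 0.24 with an SE of 0.0886, limma adjusted p = 0.576). Snrpd3 had 2861 and 2921 against 2543 and 2544. Both genes separated the groups, and both lie on chromosome 10, where the median over the 752 genes tested was 0.14. With the median of each chromosome removed, Snrpf stood at 0.098 and Snrpd3 at 0.044. Snrpf also shares exon bases with Ccdc38 on the opposite strand, over 65.9% of its annotated exons. Whether the authors' counting used strand is not given, and Ccdc38 itself had 12 and 13.9 against 26.4 and 14.7 normalised reads.

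The remaining ring genes of the constitutive set gave little difference. Snrpg had 2061 and 2026 normalised reads in overexpressing cells against 2223 and 2198 in wild type cells, and did not overlap. Snrpe had 2400 and 2634 against 2397 and 3306, the widest difference within wild type of the ring genes apart from Snrpn. Snrpb, Snrpd1 and Snrpd2 overlapped, with log2 fold changes of -0.05, 0.01 and -0.02. Per kilobase of annotated exon, the 7 constitutive Sm genes lay between 840 and 2731 normalised reads per kb in overexpressing cells and between 739 and 2316 in wild type cells. Snrpf was highest and Snrpd3 lowest in both groups.

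Snrpn was the member with the largest fold change and by far the lowest level. It had 49 and 29.9 normalised reads in overexpressing cells, against 0 and 7.37 in wild type cells. These stand for 49 and 41 reads against 0 and 7, and a count of 0 allows up to 3.77 normalised reads in that wild type library (3 reads, for counting error only). The groups did not overlap, yet the log2 fold change of 3.76 had an SE of 1.04 and 95% limits of 1.24 to 6.29 (limma adjusted p = 0.424). Without single libraries the fitted value ran between 2.23 and 5.30, and it was 5.47 with a pseudocount of 0.1 and 2.47 with one of 5. Snrpn passed the filter only through the overexpressing libraries, so it had to differ in that direction to be tested at all. Gm38393, with which it shares sequence, had 4 and 16.1 against 15.1 and 0. The constitutive paralogue Snrpb stood at 3440 and 3648 against 3477 and 3864. In overexpressing cells that is 1794 normalised reads per kb, where Snrpn had 18.3.

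**Figure D2:**
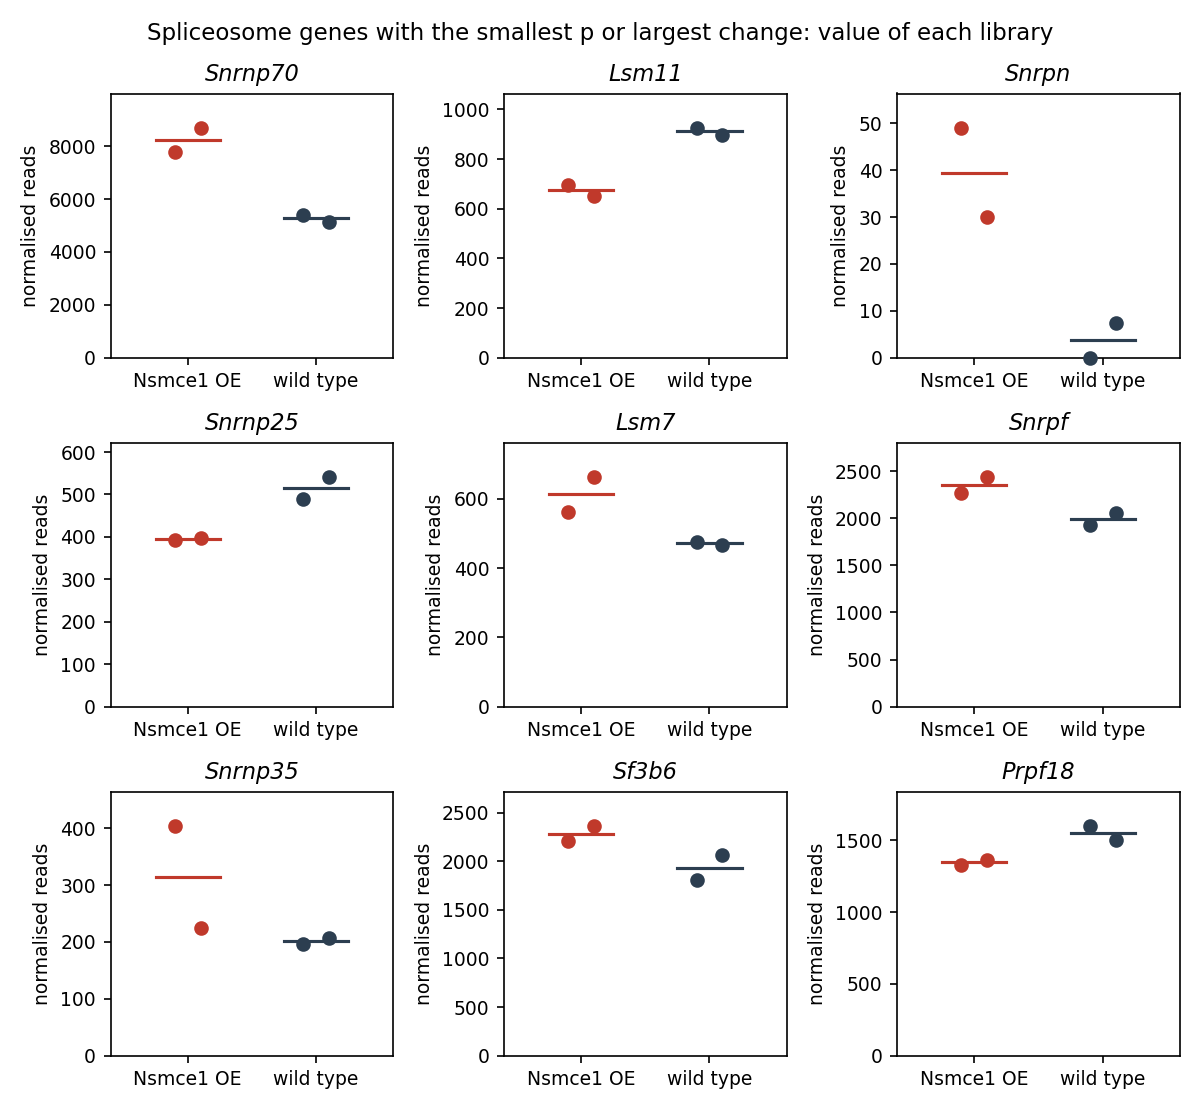
Normalised reads (y axis, from 0) of each library for 9 members, with overexpressing cells left of wild type cells, points for libraries and bars for the mean of 2. The 9 were picked for a small p or a large change, so that the groups part for all of them follows largely from the choice. Over the whole list they part for 25.4%, beside 39.1% of all genes tested. The overexpressing libraries of Snrnp35 lie far apart, at 404 and 224.

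The LSm1 to LSm8 genes make 2 rings that share most subunits. LSm2 to LSm8 hold the end of U6 snRNA in the nucleus, and with LSm1 in place of LSm8 the ring acts in cytoplasmic mRNA decay. Of these 8 genes 5 lay above 0 and 3 below, with a median log2 fold change of 0.05. Lsm7 had 563 and 663 normalised reads in overexpressing cells against 474 and 468 in wild type cells (log2 fold change 0.37 with an SE of 0.128, limma adjusted p = 0.549). The groups did not overlap, but Lsm7 lies on chromosome 10 and stood at 0.23 with chromosome medians removed. Lsm5, on chromosome 6, had 612 and 769 against 767 and 835 (log2 fold change -0.22), and Lsm4 had 746 and 904 against 859 and 1020 (-0.19). The groups overlapped for both. Lsm5 stood at -0.06 without overexpression replicate 1 and at -0.39 without overexpression replicate 2. Of the subunits that tell the rings apart, Lsm1 had 610 and 573 against 533 and 570, which do not overlap (log2 fold change 0.10), and Lsm8 had 2192 and 1970 against 2023 and 1797, which do (0.12). Lsm3 and Lsm6 had fitted changes of -0.002 and 0.002. The 8 tested partners of the cytoplasmic ring in mRNA decay included Patl1 and the decapping enzyme gene Dcp2. Of these 8, 0 reached an unadjusted limma p under 0.05, beside 7.92% of all genes tested. Lsm12, Lsm14a and Lsm14b, the last pair encoding RNA-binding proteins of P-bodies, also overlapped between the groups. Lsm12 had 2204 and 2405 against 2206 and 2403.

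The U2 particle and the U2AF heterodimer had 15 rows, 7 above 0 and 8 below. Of these 15, 0 reached an unadjusted limma p under 0.05, beside 7.92% of all genes tested. Sf3b6 encodes the small SF3B protein that lies near the branch point adenosine. It had 2205 and 2362 normalised reads in overexpressing cells against 1804 and 2061 in wild type cells (log2 fold change 0.24, 95% limits -0.0015 to 0.49, limma adjusted p = 0.626). Sf3a2, on chromosome 10, had 1563 and 1748 against 1381 and 1547, and its log2 fold change of 0.18 was 0.037 with chromosome medians removed. Only these 2 of the 15 rows had groups that did not overlap (13.3%, beside 39.1% of all genes tested). Sf3b1, the large scaffold that grips the branch point helix, had 18396 and 17510 against 17685 and 17305 (log2 fold change 0.04, limits -0.13 to 0.21). U2af2, which binds the polypyrimidine tract, had 8871 and 10227 against 9294 and 10301. U2af1, its partner that reads the AG at the 3' splice site, had 2430 and 2770 against 2680 and 3003. In both subunits the libraries of each group differed by more than the group means did. The U2af1 paralogue U2af1l4 had 169 and 139 against 163 and 162, and its second row had 351 and 380 against 284 and 362.

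The genes for proteins of the U4/U6.U5 tri-snRNP and its entry into the spliceosome had small fitted changes, and sameness of the groups was not tested. Of 11 genes 6 lay above 0 and 5 below, and the fitted log2 changes ran between -0.13 and 0.07. The groups overlapped for all 11, whereas they did not overlap for 39.1% of all genes tested. Prpf8, the U5 protein that cradles the catalytic RNA, had the highest level of all members, at 21334 and 24217 normalised reads in overexpressing cells and 23194 and 23088 in wild type cells (log2 fold change -0.03, limits -0.23 to 0.18). Snrnp200, the helicase that unwinds U4 from U6, had 7546 and 8826 against 8381 and 8468. Prpf3, a U4/U6 protein, had the largest fitted change of the 11, at 1634 and 1820 against 1747 and 2052 (log2 fold change -0.13, SE 0.114, limma adjusted p = 0.806). Its value was -0.02 without wild type replicate 2, -0.06 without overexpression replicate 1, -0.21 without overexpression replicate 2 and -0.25 without wild type replicate 1. The tri-snRNP proteins Prpf6 and Prpf31 and the kinase Prpf4b had fitted changes of 0.02, -0.06 and 0.003. Prpf19, the ubiquitin ligase that gives the Prp19 complex its name, had 5480 and 5955 against 5646 and 6389. Prpf18, which acts at the second catalytic step, had 1331 and 1367 against 1601 and 1505 and did not overlap (log2 fold change -0.20, SE 0.0891, limma adjusted p = 0.653).

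The 3 members that encode proteins of the U11/U12 particle of the minor spliceosome lay on either side of 0, 1 above and 2 below. Snrnp25 had 393 and 396 normalised reads in overexpressing cells against 490.4 and 541 in wild type cells (log2 fold change -0.38 with an SE of 0.122, limma adjusted p = 0.509). Snrnp35, the counterpart of U1-70K in U11, had 404 and 224 against 196 and 207. Its groups did not overlap, but overexpression replicate 1 carried the difference: the log2 fold change was 0.57 with both libraries (limma adjusted p = 0.678), 0.998 when overexpression replicate 2 was left out (0.180) and 0.15 when overexpression replicate 1 was left out (0.929). Snrnp48 had 511 and 644 against 570 and 603.5 and overlapped. Of 8 other minor spliceosome genes, 0 reached an unadjusted limma p under 0.05, beside 7.92% of all genes tested. Among the 8, 3 lay above 0 and 5 below. Snrnp25, Snrnp35 and Snrnp48 stood at 379, 233 and 57.0 normalised reads per kb in overexpressing cells and at 496, 150 and 57.9 in wild type cells, so their order was the same in both groups.

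**Figure D3:**
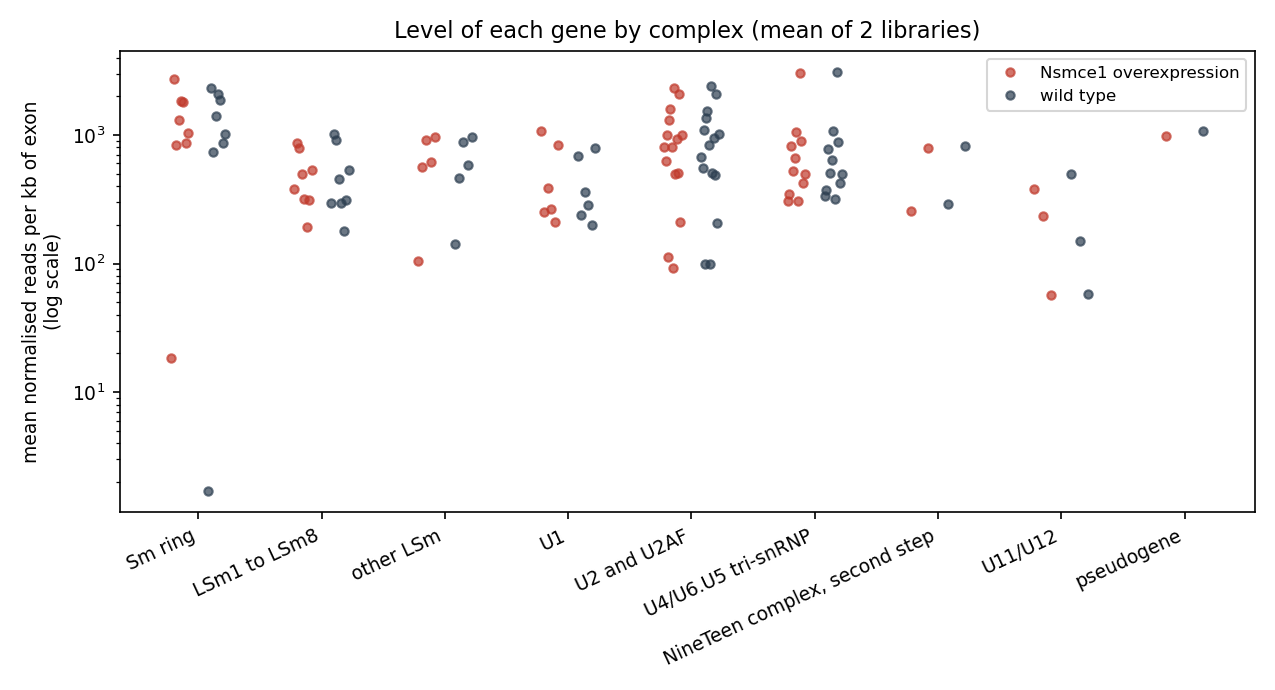
Mean normalised reads per kilobase of annotated exon (y axis, log scale) for every member by complex, overexpressing cells left of wild type cells, each point the mean of 2 libraries. Levels differ far more between genes than between groups, and Snrpn (18.3 and 1.71) lies below all others.

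Members differed between the libraries of a group in a shared way. Replicate 2 lay above replicate 1 in both groups for 38 of the 59 members (64.4%), beside 28.4% of all genes tested and 31.4% of genes with a mean of at least 100 normalised reads. It lay below in both groups for 6. The pattern was not confined to the core members, since 70 of the 123 other splicing genes tested also had replicate 2 above replicate 1 in both groups (56.9%). The median difference between replicate 2 and replicate 1 was 0.12 on the log2 scale in overexpressing cells and 0.11 in wild type cells, and so larger than the 0.003 between the groups. The members together took 0.571% and 0.616% of all reads in the overexpressing libraries and 0.571% and 0.597% in the wild type libraries. The replicate 2 libraries were also the deeper ones of each group. Between the groups, overexpression replicate 1 had more reads than wild type replicate 2 (32516117 and 31010351) at a lower member share (0.571% and 0.597%). Whether depth or anything else moves with the difference between replicates was not tested. The list median also differed with the library left out: it was 0.06 without overexpression replicate 1, -0.06 without overexpression replicate 2, -0.04 without wild type replicate 1 and 0.06 without wild type replicate 2.

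**Figure D4:**
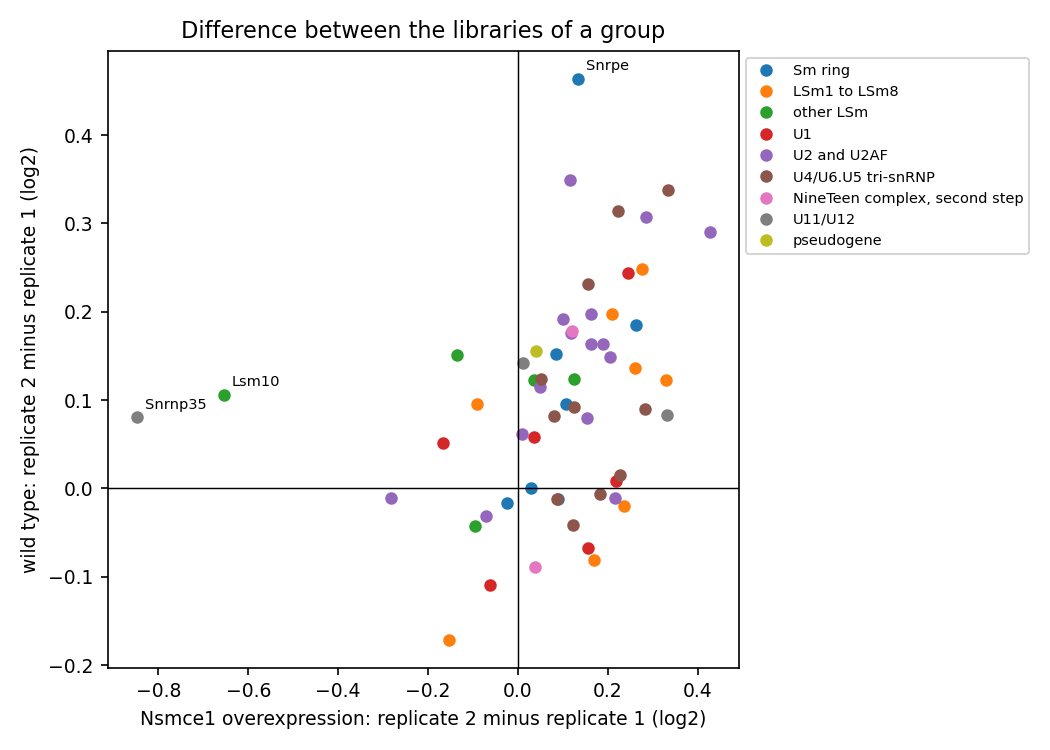
Difference between replicate 2 and replicate 1 on the log2 scale in overexpressing cells (x axis) and wild type cells (y axis) for 58 members, coloured by complex, with Snrpn left out. The corner where both differences are above 0 holds 38 members; Snrnp35 and Lsm10 lie to the left, with overexpression replicate 1 above replicate 2.

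The wider splicing machinery also had no gene called. Further genes were listed for the U1, U2, tri-snRNP, Prp19 complex, helicase, minor spliceosome, snRNP assembly, exon junction, decay and histone processing sets. Of these 126 genes, 123 were tested and limma called 0 of them, where 0.193% of all genes tested were called. With so low a share, a count of 0 says little. At an unadjusted p under 0.05 stood 3 (2.44%, beside 7.92% of all genes tested). With voom on the recovered reads the unadjusted count was also 3. Cdc40, a second-step factor on chromosome 10, had 1843 and 1857 normalised reads in overexpressing cells against 1425 and 1625 in wild type cells. Slu7, another second-step factor, had 1377 and 1450 against 1637 and 1692. Acin1, an RNA-binding protein tied to the exon junction complex, had 5623 and 6220 against 6812 and 6831. The groups did not overlap for these 3 genes, which were picked by their p (log2 fold changes 0.28, -0.24 and -0.21, limma adjusted p = 0.549, 0.569 and 0.611). Over the 123 genes the groups did not overlap for 31.7%, beside 39.1% of all genes tested. Of 22 tested genes of snRNP assembly, among them the SMN complex that loads Sm rings onto snRNA, 8 lay above 0 and 14 below. Their median was -0.05, and 0 reached an unadjusted p under 0.05, beside 7.92% of all genes tested. All 123 genes together had 51 above 0 and 72 below, with a median of -0.02.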

How the data were processed

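Each of 4 HT-22 libraries was sequenced once, 2 per group. Per the labels' protocols, RNA came from Trizol extracts and TruSeq libraries run on BGISEQ-500. HISAT, Cufflinks and mm9 are named, without versions, in the submitters' processing notes. The counting step and its use of strand were not given in the sources used here. Values as deposited are log2(normalised reads + 1) by the authors: with the log2 undone, 100% of values up to 1000 reads were whole multiples of 1 step per library (tolerance 0.05 read), which gave the whole reads and hence the depth.

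Computed here: limma 3.58.1 (R 4.3.3) with a mean-variance trend on the deposited log2 values of all 4 libraries, group as the only term, for 15540 genes with a mean of at least 10 normalised reads, two-sided and Benjamini-Hochberg adjusted. The smallest exact permutation p of 2 against 2 libraries is 0.333, so calls rest on the pooled variance (6.10 degrees of freedom, 4.10 of them prior). The pseudocount of 1 understates folds of low genes. The fit was tested on simulated data.

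For all 59 members, gene types, exon lengths, overlaps, chromosomes and the coding sequences shown were looked up by identifier in GENCODE M21 (GRCm38). This is not the authors' build, so no coordinates were joined. The values of 1 member are not reported here by name, but it stayed in every fit and count. Named members were those with an unadjusted p under 0.05 and, per complex, those with the largest change and the highest level per kb, and others were chosen after their values were seen. The members and lists were chosen with earlier results of these data known. The alternatives were pseudocounts of 0.1 and 5, no filter and a minimum mean of 50, quantile and equal-sum normalization, limma without a trend, with robust variances and with voom on the recovered reads, the replicate number as a block, chromosome medians removed, single libraries left out, and adjusted thresholds of 0.1 and 0.01.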

Additional observations from a re-analysis of the deposited data

How the results depend on the processing

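The count of core spliceosome and snRNP genes called was 0 in the other settings and 1, Snrnp70, with robust variances, with the replicate block and at an adjusted p under 0.1. For Snrnp70 the log2 fold change was 0.64 in the fit with robust variances and in that with the block (limma adjusted p = 0.0279 and 0.0480), and 0.57 to 0.72 without single libraries (limma adjusted p = 0.0647 to 0.382). The cause was not tested. The sample labels do not say whether the replicate numbers pair the samples, and a correlation across genes cannot settle it. Deviations of same-numbered libraries correlated across genes with r = 0.007 over all genes tested. The correlation was 0.31 over the 58 members other than Snrpn and -0.33 with it. Of all genes tested, 4411 had replicate 2 above replicate 1 in both groups, 4241 had it below in both, and 6888 were mixed. The block moved the calls over all genes to 60, against 30 without it. Robust variances gave 72, no trend 9, no filter 16, voom 20 and pseudocount 0.1 20, and leaving out 1 library gave 2 to 75. In those fits the lone library is assumed to vary like the other group. The unadjusted count of members was 4 with chromosome medians removed, 8 with voom, and 4 to 6 without single libraries, and the list median then ran from -0.06 to 0.06. The other splicing genes at an unadjusted p under 0.05 numbered 0 without a trend, 7 with the replicate block, 1 with chromosome medians removed and 1 to 5 without single libraries. Of 224 values of the 15 other named members, 213 kept their sign, and none crossed the threshold. The other 11 belong to members near 0: Prpf8 stood at 0.036 with quantile normalization and 0.0064 with chromosome medians removed, and Lsm12 at 7.1e-05 with equal sums, 0.00091 with voom and 0.032 with chromosome medians removed. Without single libraries Prpf8 ran from -0.117 to 0.066, Lsm12 from -0.063 to 0.063, U2af2 from -0.141 to 0.064 and Prpf19 from -0.162 to 0.017. Snrpn rests on 49 and 41 reads in overexpressing cells against 0 and 7 in wild type cells.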
